A study of Mus musculus with 9 samples.

Results

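Colon RNA was examined for 38 genes of the unfolded protein response (UPR), the integrated stress response (ISR) and the glutathione-linked part of amino acid metabolism, listed by symbol as rows of the count table. All 38 had counts in the table, which held 27719 genes and loci, and 35 of them passed the filter on low counts and were among the 12566 genes tested. *Chac2* was chosen by its measured values in these mice, so its values are a description with no test, and the counts of members below leave it out and cover the other 37, of which 34 were tested. The 37 were listed by their known function, with earlier results of these data known.

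Each group held 3 C57BL/6J mice, with 1 library of full-length cDNA per mouse read on an Oxford Nanopore instrument, which sequences whole cDNA molecules. The control group drank distilled water and was held for 30 minutes without EA. The DSS group drank 2.5% dextran sodium sulfate, a chemical that injures the colon epithelium, for 7 days and was held in the same way. The DSS + EA group drank the same solution and received electroacupuncture (EA), a weak current through needles, at acupoint ST36 on either side. EA lasted 30 minutes (2 Hz, 0.2 mA), was given daily on 5 days and began when 5 days of modeling had passed. No group received needles without current, so needling and current cannot be told apart. The age of the mice is not given in the sources used here.

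Proteins that enter the endoplasmic reticulum (ER) are folded there by chaperones and by enzymes that form disulfide bonds. When unfolded protein builds up, the sensors IRE1 (*Ern1*, and *Ern2* in mucosal epithelium), ATF6 and PERK raise chaperones, disulfide isomerases and degradation factors, with XBP1 as the transcription factor made active by IRE1. PERK and other kinases that sense amino acid shortage or infection form the ISR, in which translation of the transcription factor ATF4 increases, and ATF4 drives genes of amino acid synthesis, amino acid uptake and glutathione metabolism. In the colon, mucus-secreting goblet cells and antibody-secreting plasma cells carry a heavy load of secreted protein and are rich in ER.

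Library totals lay between 2627695 and 4235576 counts, and 3 counts, the floor used for lower bounds, stood for 0.652 to 1.15 CPM (counts scaled to the library total after TMM adjustment). Cell type markers moved strongly between the groups, as the plot of marker lists shows. The summed CPM of 8 goblet cell markers lay between 25249 and 40372 in the control group, between 1148 and 9015 in the DSS group and between 21789 and 22739 in the DSS + EA group, and all 8 were lower with DSS. The 5 plasma cell markers found summed to between 1772 and 3468 CPM in the control group, 158 and 1143 CPM in the DSS group and 553 and 1083 CPM in the DSS + EA group. Pancreatic acinar markers, which a colon sample should lack, summed to 742, 51009 and 22506 CPM in DSS + EA mice 1, 2 and 3. The same list summed to between 375 and 966 CPM in control mice and to between 48.7 and 105 CPM in DSS mice. All 17 acinar markers tested were higher in DSS + EA than in DSS. In bulk RNA of this kind, fewer cells of a type and less RNA per cell cannot be told apart, and the part of these markers in the results below was not tested.

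**Figure D1:**
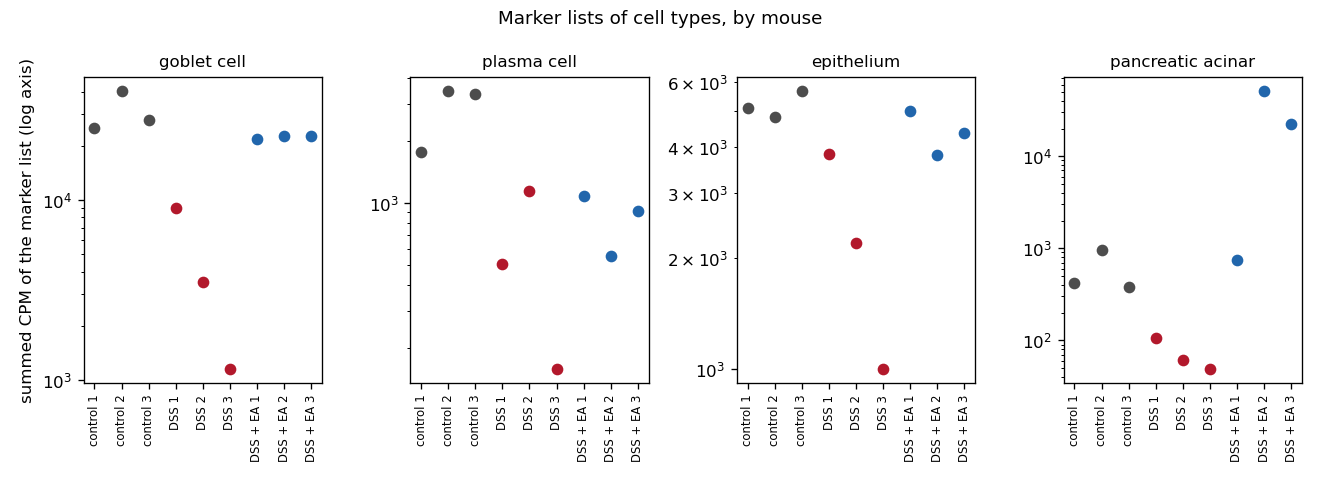
Summed CPM of the marker lists of 4 cell types in each of the 9 mice, on log axes; each point is 1 mouse, grey for control, red for DSS and blue for DSS + EA. The goblet list was lowest in the 3 DSS mice, and the pancreatic acinar list was highest in DSS + EA mice 2 and 3, at 51009 and 22506 CPM.

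Short elements known from promoters of UPR and ISR genes were searched around the start sites of the members. RefSeq promoter windows (GRCm38.p6, 250 bases before and 50 bases after the start site, 300 in all) were found for 31 of the 38 genes, in 33 windows. The ER stress element (ERSE), searched as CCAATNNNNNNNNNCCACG on both strands, was in 39 of all 32851 windows (0.119%) and in windows of 6 of the 31 genes (*Hspa5*, *Calr*, *Hsp90b1*, *Pdia6*, *Dnajc3* and *Creld2*), all of which encode ER proteins. The 7 matches are shown because this group of genes is followed below. They run 5′ to 3′ along the strand of the gene, with the element in capitals and 5 bases on either side. Where the element lies on the opposite strand its reverse complement is seen.
Hspa5 (chr2:34772020-34772048, + strand): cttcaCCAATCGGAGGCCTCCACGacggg
Calr (chr8:84847070-84847098, - strand, element on the opposite strand): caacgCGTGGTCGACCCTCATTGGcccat
Hsp90b1 (chr10:86705633-86705661, - strand): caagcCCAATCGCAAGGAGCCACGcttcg
Hsp90b1 (chr10:86705528-86705556, - strand, element on the opposite strand): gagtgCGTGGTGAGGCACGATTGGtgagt
Pdia6 (chr12:17266486-17266514, + strand): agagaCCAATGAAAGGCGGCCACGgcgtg
Dnajc3 (chr14:118937822-118937850, + strand): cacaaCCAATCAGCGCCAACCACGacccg
Creld2 (chr15:88819515-88819543, + strand, element on the opposite strand): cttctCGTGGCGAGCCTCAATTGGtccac

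The amino acid response element (CARE), searched as TTGCATCA on both strands, was in 294 of the windows (0.895%) and in windows of 3 member genes, *Chac1*, *Herpud1* and *Slc7a11*. Stretches before the start of *Chac1* and *Slc7a11* are shown with the element in capitals, since the counts of both genes in every mouse are given below. *Slc7a11* has the element once on each strand.
Chac1 (chr2:119350992-119351228, + strand): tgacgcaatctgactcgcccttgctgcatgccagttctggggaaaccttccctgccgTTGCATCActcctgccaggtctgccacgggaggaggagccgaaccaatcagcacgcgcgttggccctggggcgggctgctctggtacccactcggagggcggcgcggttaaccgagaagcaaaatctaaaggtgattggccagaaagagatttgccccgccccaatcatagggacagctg
Slc7a11 (chr3:50443615-50443863, - strand): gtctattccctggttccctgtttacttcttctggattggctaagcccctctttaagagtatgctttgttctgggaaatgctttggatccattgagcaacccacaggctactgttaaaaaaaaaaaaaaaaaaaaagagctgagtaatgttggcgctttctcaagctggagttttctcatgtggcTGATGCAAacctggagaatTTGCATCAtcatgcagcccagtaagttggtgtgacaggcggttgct
The antioxidant response element core TGACNNNGC was in 12.4% of all windows and in windows of 10 of the 31 genes, and the UPR element TGACGTGG was in 0.676% of all windows and in those of 0 of the 31. No 2 of these motifs overlapped in a member's window (0 pairs). A match describes letters only, and no factor binding was measured here.

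Of the 34 tested members, mean CPM was lowest in the DSS group for 18, highest there for 9 and between the other groups for 7, as the map of members by mouse shows. This order was not counted over all genes, so the numbers are a description and not a trait of the members. The 34 include *Chac1*, which entered the test only because it was high in the DSS + EA mice. In DSS *vs.* control, 7 of the 34 tested members were higher (20.6%) and 6 were lower (17.6%) at an adjusted p under 0.05 in edgeR's quasi-likelihood test. The 7 higher include *Sesn2*, whose call is a description because it passed the filter on low counts only with the DSS mice. Of all genes tested, 21.5% were higher and 19.5% lower, so the share of members that changed lay near that of all genes. The median log2 fold change of the 34 was -0.24, against 0.02 over all genes. In DSS + EA *vs.* DSS, which shares the DSS mice with the first comparison, 12 of 33 members were higher (36.4%, against 17.2% of all genes) and 5 were lower (15.2%, against 18.3% of all genes), with a median of 0.64 against -0.02 over all genes. These counts leave out *Chac1*, which entered the test only because it was high in the DSS + EA mice; with it 13 were higher. In DSS + EA *vs.* control, 1 member was higher (2.94%, against 3% of all genes) and 0 were lower (against 0.637% of all genes), with a median of 0.33 against 0.00 over all genes.

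A stricter rule asked for an unadjusted P under 0.01 and a log2 fold change larger than 2.5 in size. By this rule 2 members changed in DSS *vs.* control (*Slc7a11* and *Ern2*, where 10.2% of all genes did) and 2 in DSS + EA *vs.* DSS (*Slc7a11* and *Ern2*, where 6.41% of all genes did), without *Chac1*.

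**Figure D2:**
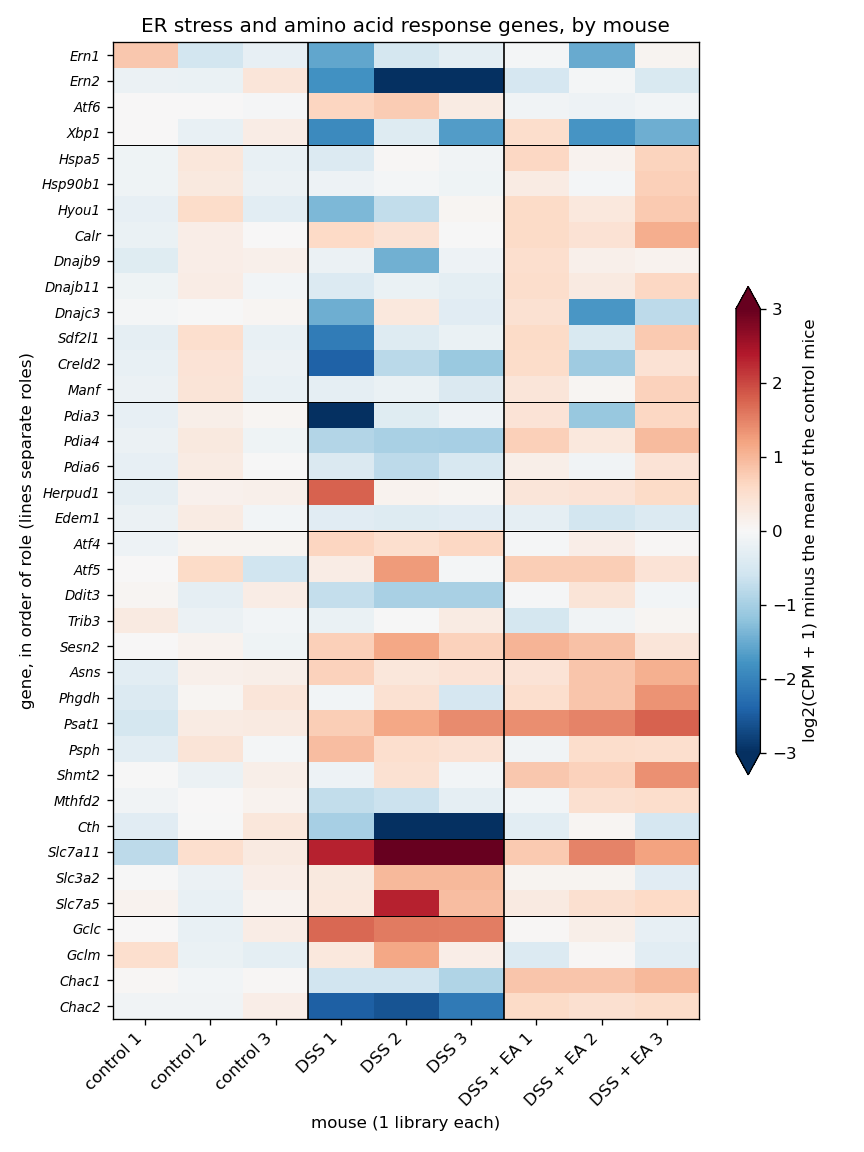
Log2(CPM + 1) of the 38 genes in each of the 9 mice, relative to the mean of the 3 control mice; red is above and blue below, the scale stops at 3 in either direction, vertical lines separate control, DSS and DSS + EA, and horizontal lines separate roles. The DSS columns are blue for *Ern2*, *Cth*, *Pdia4*, *Ddit3*, *Chac1* and *Chac2*, and red for *Slc7a11* and *Gclc*.

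Glutathione, the main thiol of the cell, is made from cysteine by glutamate cysteine ligase, whose catalytic subunit is *Gclc* and whose modifier subunit is *Gclm*, and it is broken down in the cytosol by the γ-glutamylcyclotransferases encoded by *Chac1* and *Chac2*. Cysteine enters as cystine through the transporter *Slc7a11* with its partner chain *Slc3a2*, or is made from cystathionine by *Cth*. In the DSS group the uptake and synthesis genes *Slc7a11*, *Slc3a2* and *Gclc* were higher than in the control group, and *Cth* was lower. In the DSS + EA group each of these 4 genes differed from the DSS group in the opposite direction. The same DSS mice enter both comparisons, so the directions are not independent.

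*Chac2* (chromosome 11, 30976707 to 30986350, minus strand, GENCODE M21 on GRCm38) was counted at 62, 47 and 51 in the control mice, 7, 9 and 10 in the DSS mice and 84, 64 and 80 in the DSS + EA mice. The 3 groups did not overlap. Mean CPM was 17.0 ± 2.23 for control, 2.44 ± 0.606 for DSS and 25.0 ± 0.910 for DSS + EA (SD, n = 3). Log2 fold changes were -2.79 for DSS *vs.* control, 3.35 for DSS + EA *vs.* DSS and 0.56 for DSS + EA *vs.* control. *Chac2* overlaps *Asb3* on the opposite strand, and reads of the pair could not be separated here without the strand of counting.

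*Chac1*, the stress-induced paralog (chromosome 2, 119351229 to 119354381, plus strand), was counted at 6, 4 and 4 in the control mice, 2, 3 and 1 in the DSS mice and 11, 9 and 12 in the DSS + EA mice. All 3 DSS mice lay at or under the floor of 3 counts, and all 3 DSS + EA mice lay above every other mouse. In DSS + EA mice *Chac1* was at least 4.25-fold higher than the DSS floor of 3 counts per library . The control group was at least 1.77-fold above the same floor. *Chac1* passed the filter on low counts only through the DSS + EA mice, so these values are a description and no test is given for it.

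*Slc7a11* (chromosome 3, 49892526 to 50443614, minus strand) was counted at 3, 10 and 7 in the control mice, 44, 233 and 357 in the DSS mice and 14, 20 and 19 in the DSS + EA mice. The groups did not overlap, and the DSS mice spread 7.87-fold from lowest to highest in CPM. On the log2 scale it differed by 4.74 (standard error, SE, 0.77; adjusted p = 0.00120, edgeR) in DSS *vs.* control and by -3.31 (SE 0.68, adjusted p = 0.00571, edgeR) in DSS + EA *vs.* DSS. The difference of 1.43 in DSS + EA *vs.* control did not pass the test (SE 0.82, adjusted p = 0.425, edgeR).

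*Gclc* (chromosome 9, 77754535 to 77794485, plus strand) was counted at 141, 91 and 110 in the control mice, 371, 491 and 337 in the DSS mice and 120, 108 and 95 in the DSS + EA mice. Every DSS mouse lay above all 6 others, and the control and DSS + EA mice overlapped. Mean CPM was 36.1 ± 5.95 for control, 110.4 ± 7.79 for DSS and 35.7 ± 5.16 for DSS + EA (SD, n = 3). *Gclc* was 3.06-fold higher with DSS (adjusted p = 0.000270, edgeR) and 3.10-fold lower in DSS + EA than in DSS (adjusted p = 0.000542, edgeR). *Gclm* did not pass the test in DSS *vs.* control (log2 fold change 0.62, SE 0.35, adjusted p = 0.181, edgeR) or in DSS + EA *vs.* DSS (-0.93, SE 0.36, adjusted p = 0.0649).

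*Slc3a2* (chromosome 19, 8706882 to 8723369, minus strand) was counted at 147, 101 and 113 in the control mice, 145, 344 and 242 in the DSS mice and 131, 107 and 94 in the DSS + EA mice. In CPM the DSS mice did not overlap the other groups, with DSS mouse 1 closest to them at 46.7 CPM. The gene rose 1.73-fold with DSS (adjusted p = 0.0235, edgeR) and was 1.80-fold lower in DSS + EA than in DSS (adjusted p = 0.0207, edgeR). *Slc7a5*, another light chain that pairs with *Slc3a2* and a carrier of large neutral amino acids, was too low to be tested, at 6, 3 and 4 counts in the control mice, 6, 49 and 11 in the DSS mice and 6, 6 and 8 in the DSS + EA mice. DSS mouse 2 alone was high for *Slc7a5*.

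*Cth* (chromosome 3, 157894248 to 157925077, minus strand) was lower with DSS (log2 fold change -2.29, SE 0.64, adjusted p = 0.0176, edgeR) and higher in DSS + EA than in DSS (2.02, SE 0.64, adjusted p = 0.0337, edgeR). *Cth* stood at 50.8, 64.8 and 82.8 CPM in the control mice, 31.9, 5.22 and 4.06 CPM in the DSS mice and 51.7, 67.2 and 45.4 CPM in the DSS + EA mice. The DSS mice lay below all others. DSS mouse 1 thus lay apart from its group for *Cth*, as it did for *Slc7a11*. The same mouse had the highest goblet and epithelial marker sums of the DSS group, at 9015 and 3829 CPM. These sums were 3511 and 2187 CPM in mouse 2 and 1148 and 998 CPM in mouse 3.

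**Figure D3:**
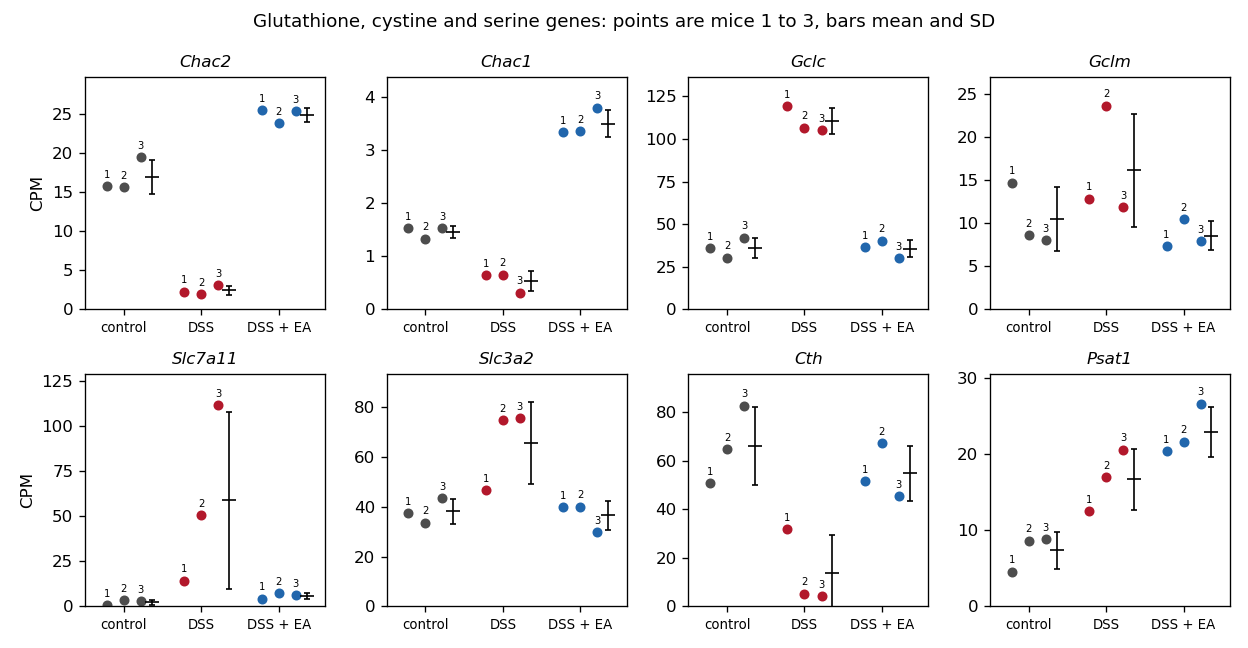
CPM of 8 genes of glutathione, cystine and serine metabolism; each point is 1 mouse, numbered 1 to 3 within its group, and the bar beside it is the group mean with its SD (n = 3), on linear axes that start at 0. *Chac2* and *Cth* were lowest and *Slc7a11*, *Slc3a2* and *Gclc* highest in the 3 DSS mice, while *Psat1* was higher than control in both DSS groups.

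Serine is made from a glycolytic intermediate by *Phgdh*, *Psat1* and *Psph* in turn, and the mitochondrial enzymes *Shmt2* and *Mthfd2* pass its carbon to folate. *Asns* makes asparagine. These enzymes did not follow 1 pattern over the groups. Of the 7 genes of amino acid synthesis and one-carbon metabolism, *Cth* included, 1 was higher and 1 lower in DSS *vs.* control (14.3% each, against 21.5% and 19.5% of all genes). The DSS + EA *vs.* DSS comparison had 4 genes higher (57.1%, against 17.2% of all genes) and 0 lower.

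*Psat1* (chromosome 19, 15904678 to 15947337, minus strand) was counted at 18, 26 and 23 in the control mice, 39, 78 and 66 in the DSS mice and 67, 58 and 84 in the DSS + EA mice. Every mouse that drank DSS, with or without EA, lay above the 3 control mice in CPM, and the DSS and DSS + EA mice overlapped. *Psat1* rose 2.30-fold in DSS *vs.* control (adjusted p = 0.0116, edgeR) and was 3.15-fold higher in DSS + EA *vs.* control (adjusted p = 0.0177, edgeR), the 1 member called in that comparison. Its log2 fold change in DSS + EA *vs.* DSS was 0.45 (SE 0.29, adjusted p = 0.235, edgeR). Without control mouse 1, control mouse 2 or DSS + EA mouse 3 the call against control was lost, with log2 fold changes between 1.39 and 1.81 over the mice left out in turn.

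*Phgdh*, *Shmt2* and *Mthfd2* were higher in DSS + EA than in DSS, by log2 fold changes of 0.95, 0.94 and 0.92 (adjusted p = 0.0492, 0.0285 and 0.0174, edgeR), and none of these 3 passed the test in DSS *vs.* control. The DSS + EA mice held 71, 74 and 124 counts of *Phgdh*, with mouse 3 the highest. Mean CPM of *Asns* was 30.1 ± 5.61 for control, 42.2 ± 5.62 for DSS and 52.3 ± 12.1 for DSS + EA (SD, n = 3). It did not pass the test in DSS *vs.* control, DSS + EA *vs.* DSS or DSS + EA *vs.* control (adjusted p = 0.126, 0.323 and 0.109, edgeR). *Psph* did not pass it either.

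Transcription factors of the ISR moved in different directions. *Atf4* mRNA was higher in the DSS group, while *Ddit3*, which encodes CHOP, a factor that acts downstream of ATF4, was lower. *Ddit3* (chromosome 10, 127290774 to 127296288, plus strand) was counted at 99, 60 and 74 in the control mice, 45, 55 and 38 in the DSS mice and 78, 86 and 72 in the DSS + EA mice. The DSS mice lay below all others, while control and DSS + EA mice overlapped. The gene was 1.92-fold lower with DSS (adjusted p = 0.00980, edgeR) and 2.05-fold higher in DSS + EA than in DSS (adjusted p = 0.00799, edgeR). It overlaps *Mars* on the opposite strand.

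*Atf4* stood at 108, 128 and 126 CPM in the control mice, 190, 171 and 186 CPM in the DSS mice and 117, 139 and 124 CPM in the DSS + EA mice. The DSS mice lay above all 6 others. *Atf4* was 1.51-fold higher with DSS (adjusted p = 0.0149, edgeR) and 1.44-fold lower in DSS + EA than in DSS (adjusted p = 0.0293, edgeR). ATF4 is controlled mainly through translation, which RNA counts do not measure. *Sesn2*, a sestrin that restrains mTORC1 signaling, was counted at 7, 6 and 4 in the control mice, 11, 24 and 11 in the DSS mice and 15, 11 and 8 in the DSS + EA mice. It rose 2.29-fold in DSS *vs.* control (adjusted p = 0.0291, edgeR). The count minimum of the filter was passed in 0 control mice, 3 DSS mice and 2 DSS + EA mice. *Sesn2* thus entered the test only with the DSS mice, whose high counts are what the test compares. Its call is therefore a description, and it was lost with no filter on low counts and with DESeq2.

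*Trib3*, a pseudokinase that inhibits ATF4 and AKT, was at the limit of detection in all groups, at 5, 2 and 2 counts in the control mice, 2, 4 and 4 in the DSS mice and 1, 2 and 3 in the DSS + EA mice. No fold is given for it, since a difference was not detectable at this depth. *Atf5*, a further ATF4-like factor, spread 2.73-fold among the control mice and 2.84-fold among the DSS mice in CPM and did not pass the test in any comparison.

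The sensors of the UPR also differed from each other. *Ern2*, the IRE1 form of mucosal epithelium, was lower in the DSS group, and *Atf6* was higher. *Ern2* (chromosome 7, 122169893 to 122186207, minus strand) was counted at 161, 122 and 158 in the control mice, 39, 23 and 6 in the DSS mice and 106, 119 and 106 in the DSS + EA mice. The DSS mice did not overlap either group and ranked in the order 1, 2, 3, which was also the order of their goblet marker sums of 9015, 3511 and 1148 CPM. This order was not particular to goblet markers. Colonocyte, epithelial and pancreatic acinar sums had it too, and neutrophil, macrophage and fibroblast sums had the reverse order. Plasma cell, smooth muscle and cycling cell sums had neither. The part of any cell type in *Ern2* was not tested. *Ern2* was 7.35-fold lower with DSS (adjusted p = 0.00171, edgeR) and 5.72-fold higher in DSS + EA than in DSS (adjusted p = 0.00477, edgeR).

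*Atf6* stood at 20.6, 20.6 and 19.9 CPM in the control mice, 32.2, 35.2 and 24.3 CPM in the DSS mice and 18.9, 18.3 and 19.4 CPM in the DSS + EA mice, and the DSS mice lay above all others. It was higher with DSS (log2 fold change 0.59, SE 0.20, adjusted p = 0.0377, edgeR) and lower in DSS + EA than in DSS (-0.70, SE 0.20, adjusted p = 0.0219, edgeR). *Ern1*, the IRE1 form of most tissues, was too low to be tested, with 23, 5 and 6 counts in the control mice, 1, 8 and 7 in the DSS mice and 9, 1 and 10 in the DSS + EA mice. *Xbp1* spread 2.92-fold among the DSS mice and 5.00-fold among the DSS + EA mice in CPM. Mouse 1 of the DSS + EA group held 871 counts of it against 142 and 208 in mice 2 and 3. The log2 fold changes of *Xbp1*, -1.17 in DSS *vs.* control and 0.65 in DSS + EA *vs.* DSS, did not pass the test (adjusted p = 0.143 and 0.415, edgeR). Gene counts do not separate the spliced from the unspliced *Xbp1* mRNA.

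**Figure D4:**
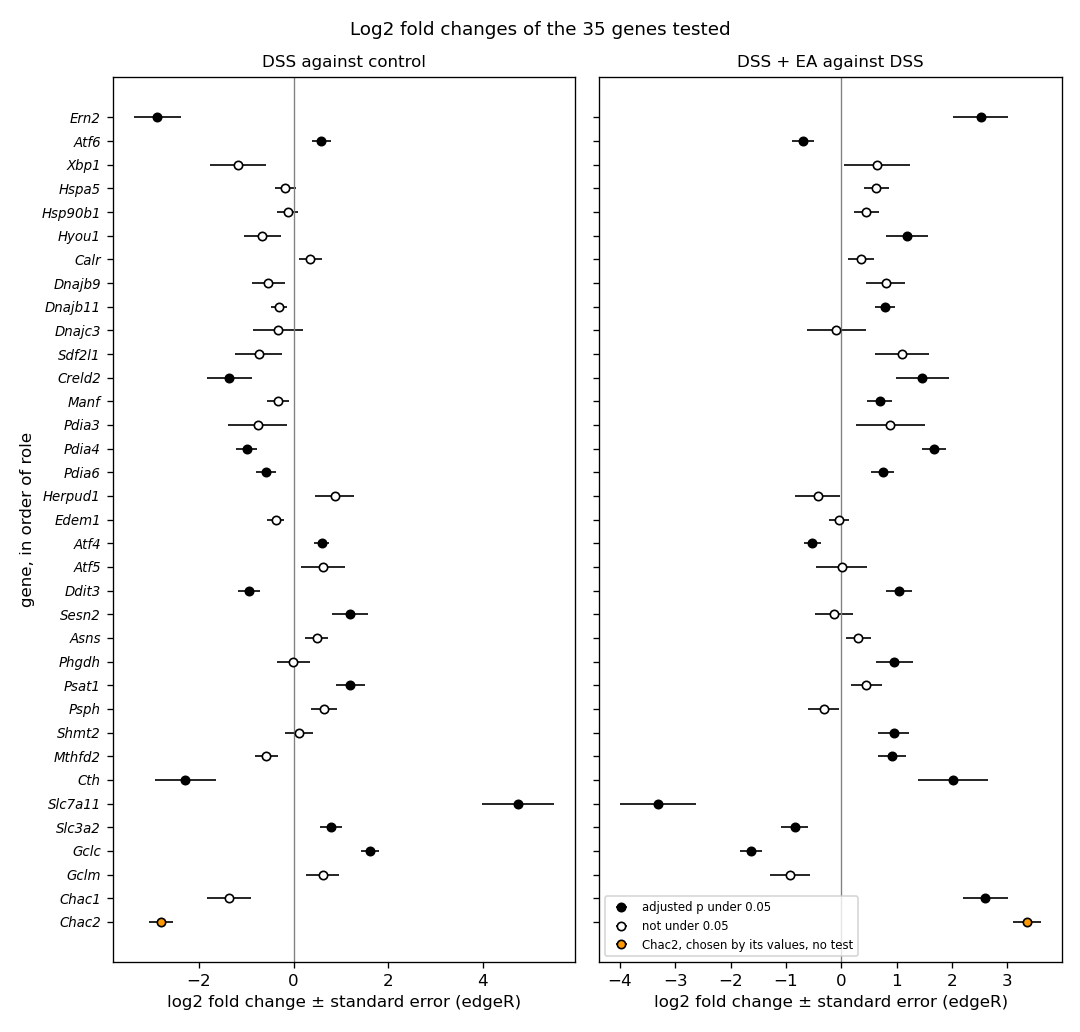
Log2 fold changes with standard errors from edgeR for the 35 genes tested, in DSS against control and in DSS + EA against DSS; filled points passed an adjusted p under 0.05, open points did not, and *Chac2* is orange because it was chosen by its values and has no test. In the first panel 7 filled points lie above 0 and 6 below, and in the second 12 lie above and 5 below, *Chac1* left out. The point of *Chac1* in the second panel is filled too. It is not read as a test, because *Chac1* passed the filter on low counts only through the DSS + EA mice. The 7 in the first panel include *Sesn2*, whose call is a description because it passed that filter only with the DSS mice. Both panels use the same DSS mice.

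Of the 13 ER folding genes, 3 were lower (23.1%, against 19.5% of all genes) and 0 higher with DSS, a share of lower genes near that of all genes. For DSS + EA *vs.* DSS, 6 were higher (46.2%, against 17.2% of all genes) and 0 lower. *Pdia4* (chromosome 6, 47796141 to 47813430, minus strand), a protein disulfide isomerase, was counted at 256, 272 and 176 in the control mice, 122, 169 and 116 in the DSS mice and 401, 245 and 452 in the DSS + EA mice. The 3 groups did not overlap in CPM, at 74.3 ± 14.0 CPM (SD, n = 3) for control, 37.4 ± 1.63 CPM for DSS and 119 ± 26.1 CPM for DSS + EA. *Pdia4* was 1.99-fold lower with DSS (adjusted p = 0.00556, edgeR) and 3.18-fold higher in DSS + EA than in DSS (adjusted p = 0.000752, edgeR). In DSS + EA *vs.* control *Pdia4* did not pass the test (log2 fold change 0.68, SE 0.21, adjusted p = 0.129, edgeR). Its lowest DSS + EA mouse, at 91.5 CPM, lay close to the highest control mouse, at 90.4 CPM. Goblet marker sums were also lowest in the DSS mice, and those of the DSS + EA mice lay below the control range. The part of goblet cells in *Pdia4* was not tested.

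*Pdia6* was lower with DSS (log2 fold change -0.58, SE 0.21, adjusted p = 0.0445, edgeR) and higher in DSS + EA than in DSS (0.74, SE 0.21, adjusted p = 0.0196). *Pdia3*, the isomerase that works on glycoproteins, did not pass the test in DSS *vs.* control (-0.76, SE 0.63, adjusted p = 0.358, edgeR) or in DSS + EA *vs.* DSS (0.89, SE 0.63, adjusted p = 0.290). *Pdia3* overlaps *Catsper2* and *Pdia6* overlaps *Atp6v1c2*, each on the opposite strand. Of the 3 isomerases, 0 were higher and 2 lower in DSS *vs.* control (21.5% and 19.5% of all genes), and 2 were higher in DSS + EA *vs.* DSS (17.2% of all genes).

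Of the 10 chaperones, co-chaperones and secreted ER factors, 1 was lower and 0 higher with DSS (19.5% and 21.5% of all genes), with log2 fold changes from -1.35 for *Creld2* to 0.36 for *Calr*. The DSS + EA *vs.* DSS comparison had 4 genes higher and 0 lower (17.2% and 18.3% of all genes). They were *Creld2*, a disulfide-active factor of the ER (log2 fold change 1.47, adjusted p = 0.0393, edgeR), and *Hyou1*, an exchange factor and chaperone (1.19, adjusted p = 0.0377, edgeR). The others were the HSP40 co-chaperone *Dnajb11* (0.78, adjusted p = 0.00833, edgeR) and *Manf*, a secreted ER factor (0.69, adjusted p = 0.0383, edgeR). *Manf* overlaps *Dcaf1* and *Rbm15b*. The other co-chaperones, *Dnajb9*, *Dnajc3* and *Sdf2l1*, and the lectin chaperone *Calr* did not pass the test.

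*Hspa5* encodes BiP, the main ER chaperone and a common measure of the UPR. It stood at 315, 443 and 299 CPM in the control mice, 262, 356 and 321 CPM in the DSS mice and 535, 374 and 548 CPM in the DSS + EA mice. The control and DSS mice overlapped (log2 fold change -0.17, SE 0.23, adjusted p = 0.579, edgeR). The DSS + EA mice lay above all DSS mice, but the log2 fold change of 0.64 (SE 0.23) did not pass the threshold (adjusted p = 0.0547, edgeR). With DESeq2 in place of edgeR the same difference passed it (0.65, adjusted p = 0.0437). *Hsp90b1*, which encodes GRP94, gave -0.12 (SE 0.23, adjusted p = 0.690, edgeR) and 0.45 (SE 0.23, adjusted p = 0.147).

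Of the 6 genes with an ERSE in the window shown above, *Creld2* and *Pdia6* were called lower with DSS (19.5% of all genes) and higher in DSS + EA *vs.* DSS (17.2% of all genes). The other 4, *Hspa5*, *Calr*, *Hsp90b1* and *Dnajc3*, were called in neither. These shares are for each comparison alone. The comparisons share the DSS mice, and the share of all genes called in both was not counted.

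The 2 genes of ER-associated degradation, *Herpud1* and *Edem1*, were not called in any comparison. *Herpud1*, part of the complex that moves misfolded proteins out of the ER, stood at 370, 117 and 113 CPM in DSS mice 1, 2 and 3, and DSS mouse 1 alone lay above the control range of 89.2 to 121 CPM. On the log2 scale *Herpud1* gave 0.87 (SE 0.41, adjusted p = 0.118, edgeR) in DSS *vs.* control and -0.43 (SE 0.41, adjusted p = 0.437, edgeR) in DSS + EA *vs.* DSS.

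The spread of several ER genes within a group came from a pair of mice, DSS mouse 1 and DSS + EA mouse 2; the genes of this paragraph were named after their values were seen. *Pdia3* stood at 80.8, 516 and 595 CPM in the DSS mice and 882, 302 and 1018 CPM in the DSS + EA mice, while the control mice lay between 565 and 755 CPM. *Creld2* stood at 11.9, 38.0 and 30.9 CPM in the DSS mice and 100.4, 31.8 and 92.0 CPM in the DSS + EA mice. In both groups the named mouse lay far below its group mates. *Sdf2l1*, a component of the BiP chaperone complex, stood at 9.33, 33.0 and 38.1 CPM in the DSS mice and 65.1, 31.4 and 75.5 CPM in the DSS + EA mice. The same mice were low for *Dnajc3*, which encodes the co-chaperone p58IPK, counted at 76, 394 and 175 in the DSS group and at 312, 53 and 126 in the DSS + EA group. In both mice these 4 genes lay at least 2-fold below both other mice of the group, as did 186 (1.48%) of all 12566 genes tested. The spread was not shared by all members: *Pdia4*, *Hspa5*, *Hsp90b1* and *Manf* differed less than 2-fold among the mice of each group.

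**Figure D5:**
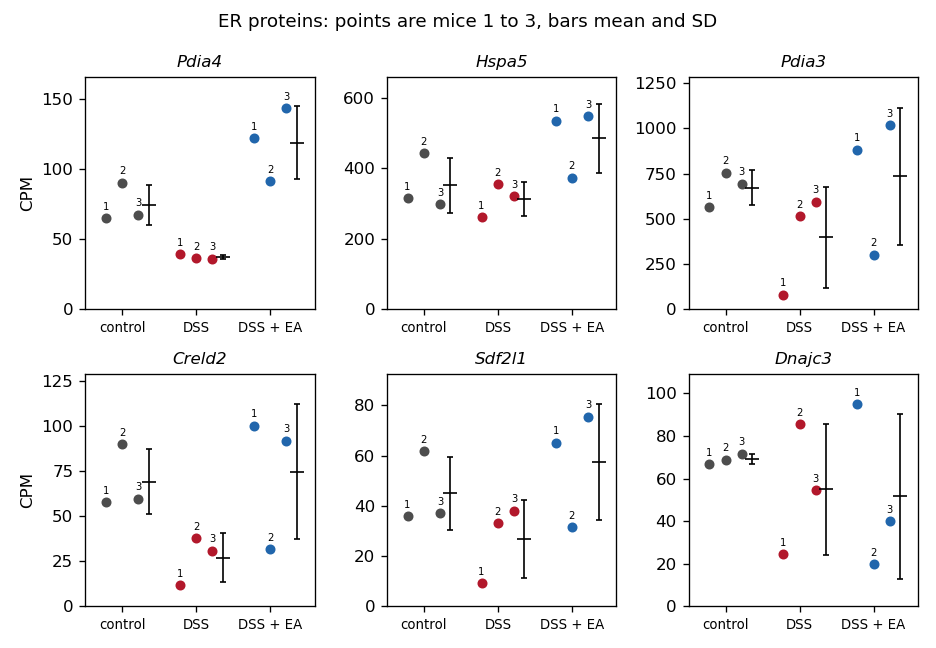
CPM of 6 genes of ER folding; each point is 1 mouse, numbered 1 to 3 within its group, and the bar beside it is the group mean with its SD (n = 3), on linear axes that start at 0. *Pdia4* separated the 3 groups, while DSS mouse 1 was the lowest of the 9 mice for *Pdia3*, *Creld2* and *Sdf2l1* and DSS + EA mouse 2 the lowest of its group for all 6 genes.

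Without DSS mouse 1 and DSS + EA mouse 2, *Pdia3*, *Sdf2l1* and *Hspa5* passed the test in DSS + EA *vs.* DSS, with log2 fold changes of 0.81, 1.02 and 0.71 (adjusted p = 0.0121, 0.0273 and 0.0308, edgeR), whereas *Phgdh*, *Mthfd2*, *Hyou1* and *Atf6* no longer did. These fits were chosen after the data were seen. The mice left out were those low for *Pdia3* and *Sdf2l1*. They were also the lowest of their groups for *Hspa5*, at 262 and 374 CPM. A smaller spread of these genes thus follows from that choice. The passes of *Pdia3*, *Sdf2l1* and *Hspa5* are therefore a description.

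Pancreatic acinar cells are also rich in ER, and DSS + EA mouse 1 had an acinar marker sum of 742 CPM, within the control range. *Pdia4* stood at 122 CPM in mouse 1, 91.5 CPM in mouse 2 and 143 CPM in mouse 3. The part of acinar RNA in the values of the DSS + EA group was not tested. In a fit with mouse 1 as the only DSS + EA mouse, the spread came from the other groups and the lone mouse was assumed to vary like them. There *Pdia4* (log2 fold change 1.72, adjusted p = 0.0207, edgeR) and *Gclc* (-1.58, adjusted p = 0.0413) were the members past the threshold. *Ern2* had a log2 fold change of 2.34 (adjusted p = 0.0812, edgeR).

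Several calls were lost when 1 mouse was left out, which also leaves fewer mice to test with. In DSS *vs.* control, *Cth* lost its call without control mouse 3 or DSS mouse 2, with log2 fold changes between -3.83 and -1.86 over the mice left out in turn. *Atf6* kept it only without DSS mouse 3 (0.49 to 0.73). *Atf4* lost it without control mouse 1 or 3 (0.48 to 0.65), and *Slc3a2* without control mouse 1 or 2 or DSS mouse 2 or 3 (0.67 to 0.96). *Sesn2* lost it without any 1 of the control mice, DSS mouse 2 or DSS + EA mouse 2 (0.97 to 1.30). *Creld2* kept it only without DSS mouse 2 or DSS + EA mouse 1 or 2 (-1.67 to -1.03), and *Pdia6* only without control mouse 1, DSS mouse 1 or DSS + EA mouse 2 or 3 (-0.73 to -0.46).

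In DSS + EA *vs.* DSS, *Cth* lost its call without DSS mouse 2 or 3 or any 1 of the DSS + EA mice (log2 fold changes 1.60 to 3.56). The same held for *Creld2* without control mouse 1, DSS mouse 1 or 3 or DSS + EA mouse 1 or 3 (1.15 to 1.87), for *Hyou1* without DSS mouse 1 or 2 or DSS + EA mouse 1 or 3 (0.93 to 1.66) and for *Manf* without DSS mouse 2 or 3 or DSS + EA mouse 1 or 3 (0.50 to 0.87). *Pdia6* lost it without DSS mouse 2 or DSS + EA mouse 1 or 3 (0.59 to 0.90), *Shmt2* without DSS mouse 3 or DSS + EA mouse 1 or 3 (0.68 to 1.20) and *Mthfd2* without DSS mouse 2 or DSS + EA mouse 3 (0.79 to 1.08). *Phgdh* lost it without control mouse 2, DSS mouse 1 or 3 or DSS + EA mouse 2 or 3 (0.67 to 1.27). Of the genes lower in this comparison, *Slc3a2* lost its call without DSS mouse 2 or 3 or DSS + EA mouse 2 or 3 (-1.01 to -0.73) and *Atf6* without DSS mouse 2 or any 1 of the DSS + EA mice (-0.83 to -0.59). *Atf4* kept it only without DSS mouse 1 or 2 (-0.58 to -0.46). *Ddit3*, *Slc7a11*, *Pdia4*, *Ern2* and *Gclc* kept their calls in both comparisons with each of the 9 mice left out.

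Other genes of the same pathways came from lists drawn up by function. Of 40 further genes of ER folding, translocation and degradation, 3 were higher and 5 lower in DSS *vs.* control (7.5% and 12.5%, against 21.5% and 19.5% of all genes). For DSS + EA *vs.* DSS, 7 were higher and 1 lower (17.5% and 2.5%, against 17.2% and 18.3% of all genes), so the share higher lay near that of all genes. The isomerase *Pdia5* had log2 fold changes of -1.68 and 1.37 in these comparisons, and *Cnpy2*, an ER-resident saposin-like protein, -1.55 and 1.16 (adjusted p = 0.000339, 0.00151, 0.000331 and 0.00214, edgeR). *Ssr3*, a subunit of the translocon-associated complex, and the oxidase *Ero1l*, which supplies disulfides to the isomerases, were higher with DSS (1.36 and 0.69), and the translocation factor *Sec63* was lower in DSS + EA than in DSS (-0.89). *Derl3*, which is also a plasma cell marker, was among the genes lower with DSS and higher in DSS + EA.

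Of 20 cytosolic aminoacyl-tRNA synthetases, which charge tRNAs with amino acids and include many ATF4 targets, 0 were higher and 2 lower in DSS *vs.* control (10% lower, against 19.5% of all genes). The DSS + EA *vs.* DSS comparison had 9 genes higher and 0 lower (45% higher, against 17.2% of all genes). Their median log2 fold changes were -0.21 and 0.42, against 0.02 and -0.02 over all genes. *Yars* had -1.13 (SE 0.23, adjusted p = 0.00395, edgeR) with DSS and 1.20 (SE 0.23, adjusted p = 0.00403) in DSS + EA *vs.* DSS, *Tars* had -0.67 with DSS, and *Wars* had 1.00 in DSS + EA *vs.* DSS.

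Of 21 further genes of amino acid synthesis, one-carbon metabolism and amino acid transport that were tested, 1 was higher and 10 were lower in DSS *vs.* control (4.76% and 47.6%, against 21.5% and 19.5% of all genes). For DSS + EA *vs.* DSS, 9 were higher and 1 was lower (42.9% and 4.76%, against 17.2% and 18.3% of all genes). *Pycr1*, the last enzyme of proline synthesis, was lower with DSS (log2 fold change -3.33, SE 0.40, adjusted p = 0.000256, edgeR) and higher in DSS + EA than in DSS (2.51, SE 0.41, adjusted p = 0.00195). *Pck2*, mitochondrial phosphoenolpyruvate carboxykinase, was lower with DSS (-1.25), and cytosolic *Shmt1* was higher in DSS + EA than in DSS (1.14). The exceptions were *Mthfd1l*, a mitochondrial folate enzyme that was higher with DSS (1.26), and glutamine synthetase *Glul*, which was lower in DSS + EA than in DSS (-1.02).

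Of 22 further ISR genes tested, 6 were higher and 4 lower in DSS *vs.* control (27.3% and 18.2%, against 21.5% and 19.5% of all genes). The DSS + EA *vs.* DSS comparison had 5 genes higher and 7 lower (22.7% and 31.8%, against 17.2% and 18.3% of all genes). *Ppp1r15a*, which encodes the phosphatase subunit GADD34 that ends the ISR, had log2 fold changes of 1.76 and -1.63, and *Ddit4*, an mTORC1 inhibitor, 2.23 and -1.38 (adjusted p = 0.000140, 0.000456, 7.92e-05 and 0.00128, edgeR). *Cebpg*, a partner of ATF4, had -2.32 with DSS, *Stc2*, a secreted glycoprotein, had -1.55 with DSS and 1.95 in DSS + EA *vs.* DSS, and *Eif2ak2*, the kinase PKR, had 2.38 in DSS + EA *vs.* DSS. *Eif2ak2* and *Ddit4* were also higher in DSS + EA *vs.* control (1.43 and 0.86).

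Of 26 further genes of glutathione metabolism and the antioxidant factor NRF2 that were tested, 6 were higher and 5 lower in DSS *vs.* control (23.1% and 19.2%, against 21.5% and 19.5% of all genes). For DSS + EA *vs.* DSS, 1 was higher and 5 lower (3.85% and 19.2%, against 17.2% and 18.3% of all genes). Apart from the 1 higher gene, these shares lay near those of all genes. *Hmox1*, heme oxygenase, had log2 fold changes of 5.56 (SE 0.75, adjusted p = 0.000475, edgeR) and -3.74 (SE 0.67, adjusted p = 0.00297), and the secreted peroxidase *Gpx3* had 3.06 and -1.78. The glutathione transferase *Gstm3* had -4.13 and 3.22, and *Gstm1* had -1.23 with DSS. *Gpx3* was the 1 gene of this list that differed in DSS + EA *vs.* control (1.28, adjusted p = 0.0137, edgeR). Neutrophil markers, whose summed CPM was 4458 to 26596 in the DSS group against 25.7 to 160 in the control group and 1218 to 1638 in the DSS + EA group, moved in the same direction as *Slc7a11* and *Hmox1*. So did macrophage markers (197 to 224 CPM in control, 872 to 1380 in DSS and 523 to 587 in DSS + EA mice). Fibroblast markers did too (754 to 824, 4079 to 6796 and 1612 to 1703 CPM), while the goblet sums given above moved the other way. The part of these cell types in the values of *Slc7a11* and *Hmox1* was not tested.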

How the data were processed

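Colon RNA of 9 mice was analysed, grouped by the labels into control, DSS and DSS + EA with 3 mice each. The authors deposited raw read counts per gene from Nanopore full-length cDNA amplified by PCR. The submitters' notes name the build mm10, and the aligner, counting tool, annotation and use of strand are not given in the sources used here, so reads of overlapping genes cannot be separated. The 14 lines without counts were skipped. A second identifier for *Ddit3* had 0 counts in every mouse and was left out.

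The main test was the quasi-likelihood test of edgeR 4.0.16 (R 4.3.3). All 9 libraries entered 1 fit with group as the only term, TMM scaling, filterByExpr (a minimum of 10 counts) and a prior count of 0.125, and p-values were adjusted by Benjamini-Hochberg over all 12566 genes. Standard errors were derived from the F statistic. The script was tested on simulated data. The p-values rest on the spread between mice within the groups, with 3 mice per group. That spread was estimated over all 9 libraries and moderated across genes. The floor of 3 counts covers counting error only. Motifs were matched exactly in RefSeq promoter windows (GRCm38.p6), and gene positions are from GENCODE M21. Tables and figures were made in Python 3.11.15 (pandas 2.3.3, matplotlib 3.10.9).

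The members, the gene lists, the tests and the alternatives were chosen with earlier results of these data known. Every member is named, and counts in every mouse are given for *Chac1*, *Chac2*, the 3 called members of smallest P in each direction of each comparison, and members at 3 counts or fewer in a whole group. Of each other list, the 2 genes of smallest P in each direction are named. The alternatives were DESeq2 1.42.0, RLE scaling or library totals, all genes with a count, genes with 20 or more counts on average, fits of the compared groups alone, a prior count of 2, the stricter call rule, the replicate number as a block and each mouse left out in turn. The other measurements of the study were not analysed here.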

Additional observations from a re-analysis of the deposited data

How the results depend on the processing

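In DSS *vs.* control the 7 members higher and 6 lower became 1 and 1 under the stricter call rule, while the other pathway genes called went from 42 to 7, and 3 members higher without DSS + EA mice 2 and 3. In DSS + EA *vs.* DSS the 13 higher (*Chac1* included) and 5 lower became 7 and 2 with only the groups compared in the fit, 8 higher with a mean of at least 20 counts, 3 lower with no filter, 2 and 1 (other pathway genes from 45 to 5) under the stricter rule, and 1 and 1 (8 other pathway genes) without DSS + EA mice 2 and 3. In DSS + EA *vs.* control the 1 member higher became 3 with only the groups compared (other pathway genes from 3 to 8) and 0 under the stricter rule or without DSS + EA mice 2 and 3 (0 other pathway genes in both), and 5 other pathway genes were called with DESeq2 and without DSS mouse 1 and DSS + EA mouse 2. The cause of these moves was not tested, except that smaller fits hold fewer samples. The fits without the mice named in pairs were chosen after the data were seen. In this section the counts of members higher in DSS + EA *vs.* DSS keep *Chac1* wherever it was called. It passed the filter on low counts only through the DSS + EA mice. The counts of members higher in DSS *vs.* control keep *Sesn2* wherever it was called. *Sesn2* passed the filter only with the DSS mice.

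Leaving out each mouse in turn gave 3 to 7 members higher and 3 to 6 lower in DSS *vs.* control (31 to 50 other pathway genes), 5 to 13 higher and 2 to 7 lower in DSS + EA *vs.* DSS (27 to 61 other pathway genes), and 0 to 1 higher in DSS + EA *vs.* control (0 to 6 other pathway genes). The lowest counts came without control mouse 1 (3 higher) and control mouse 3 (3 lower) in the first comparison and without DSS + EA mouse 3 (5 higher, 2 lower) in the second; control mouse 2 and DSS mouse 2 (4 higher each) in the first, and DSS mice 2 and 3 (8 higher each), DSS + EA mouse 1 (7 higher) and DSS + EA mouse 2 (2 lower) in the second moved them by over 1.5 times too. *Ddit3*, *Psat1*, *Slc7a11*, *Pdia4*, *Ern2* and *Gclc* kept their calls in DSS *vs.* control in all 8 alternatives to the fit and with each of the 9 mice left out, as did *Ddit3*, *Dnajb11*, *Slc7a11*, *Pdia4*, *Ern2* and *Gclc* in DSS + EA *vs.* DSS. In DSS *vs.* control *Pdia6* kept its call in 3 of the 8 alternatives and *Atf6* in 4, and both lost it with DESeq2. *Sesn2* lost it with DESeq2 too and kept it in 5 of the 7 alternatives that tested it. For DSS + EA *vs.* DSS, *Phgdh* kept its call in 3 of the 8 and *Creld2* in 4. All other calls were kept in more. Of the values printed in the text, those that changed sign were not called in either fit. They were *Hsp90b1* in DSS *vs.* control (-0.24 to 0.008 over the mice left out in turn, the latter without control mouse 2) and, in DSS + EA *vs.* DSS, *Xbp1* without DSS + EA mouse 1 (-0.46, range to 1.27), *Dnajc3* without DSS mouse 2, DSS + EA mouse 2 or DSS + EA mouse 3 (-0.883 to 0.36) or without DSS + EA mice 2 and 3 (0.81), *Asns* without the latter (-0.074), and *Herpud1* without DSS mouse 1 (-0.706 to 0.40) or without that mouse and DSS + EA mouse 2 (0.43).

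Same-numbered mice are different animals, and their deviations from the group means correlated at between -0.16 and 0.11, so the numbers were not taken as pairs. With the replicate number as a block, 5 members were higher and 4 lower in DSS *vs.* control, 9 higher and 4 lower in DSS + EA *vs.* DSS, and 1 higher and 0 lower in DSS + EA *vs.* control. At these depths *Trib3*, *Slc7a5* and *Ern1* were too low to test, and *Chac1* rested on at most 12 counts per mouse.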
